A study of Rattus norvegicus with 34 samples.

Results

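The transcripts of the 3 mitochondrially encoded subunits of cytochrome c oxidase were followed in the dorsal hippocampus of 34 male Sprague Dawley rats. These were Mt-co1 (ENSRNOT00000050156.3, 1545 bases), Mt-co2 (ENSRNOT00000043693.3, 684 bases) and Mt-co3 (ENSRNOT00000049683.3, 784 bases). They are defined by their identity as genes of the mitochondrial genome, and are 3 of the 31196 transcripts that were quantified. Rats entered both experiments at postnatal day (PN) 26 to 28. In Experiment 1, Sug rats (n = 7) drank an 11% (w/v) sugar solution of 65% fructose and 35% glucose, and Ctl rats (n = 7) had a further bottle of water; the labels place the end of both at PN104, while the study's methods describe hippocampal punches of an earlier day from a separate cohort. In Experiment 2, rats were followed to PN 83. Abx_Pb rats (n = 7) were gavaged for 7 days with neomycin and metronidazole, each at 100 mg/kg, and with vancomycin at 50 mg/kg, had ampicillin at 1 mg/mL in their water, and were then gavaged with Parabacteroides distasonis and Parabacteroides johnsonii in equal parts. Abx_Sal rats (n = 6) received the same antibiotics and then saline, and Sal_Sal rats (n = 7) received saline without antibiotics. Sal_Sal and Abx_Sal together formed the 13 combined controls. The antibiotics were thus shared by every Abx_Pb rat and by 6 of the 13 rats it was compared with.

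Cytochrome c oxidase, or complex IV, is the last enzyme of the respiratory chain in the inner mitochondrial membrane. It passes electrons from cytochrome c to oxygen and pumps protons, and so contributes to the gradient from which ATP is made. Its catalytic core is built from the products of the mitochondrial genome, while the remaining subunits are encoded in the nucleus and imported. The mitochondrial genes are transcribed together as long precursors and then cut apart, so their transcripts share a common start but can differ in stability. In hippocampal neurons most ATP comes from oxidative phosphorylation, and cytochrome c oxidase is a classical histochemical marker of how active neuronal tissue is.

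Each rat had between 14394530 and 22332725 reads assigned to transcripts. The group medians of this depth lay between 16157927 reads in Abx_Pb and 17866670 in Ctl. The identifiers in the deposited files come without gene symbols. Markers of hippocampal cell types, the nuclear subunits of complex IV and the other mitochondrial genes could therefore not be picked out by name. The library labels carry numbers, and the order of the groups begins again part of the way through them, which leaves 10 early-numbered and 24 late-numbered rats. What the numbers stand for is not given in the sources used here. Every group had rats of both kinds, and 2 of 7 Ctl, 2 of 7 Sug, 3 of 7 Sal_Sal, 1 of 6 Abx_Sal and 2 of 7 Abx_Pb rats were early-numbered.

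All 3 transcripts were among the most abundant in every rat. Mt-co1, whose product carries the site where oxygen is reduced, had the highest read count of all transcripts in each of the 34 rats. Mt-co3, the core subunit without a redox centre, ranked between 3 and 5, and Mt-co2, whose product takes up the electrons of cytochrome c, ranked between 6 and 10. Together they took between 4.06% and 5.59% of the assigned reads of a rat, with a median of 4.70%. The estimated counts of each were exact whole numbers in 34 of 34 rats, as they are when no read is shared out between transcripts. On the scale of CPM (counts scaled to a fixed library total) per kilobase of effective length, Mt-co1 stood above Mt-co2 in all 34 rats, with ratios of levels from 1.11 to 1.64 and a median of 1.32. The corresponding ratio of Mt-co1 to Mt-co3 was 1.14 to 1.39, with a median of 1.28, again above 1 in 34 of 34 rats. Mt-co3 and Mt-co2 were close to each other on this scale, with ratios from 0.955 to 1.21 and Mt-co3 the higher in 23 of 34 rats. These ratios and this count depend on the effective lengths, 435 bases for Mt-co2 and 535 for Mt-co3 in every rat. Full lengths were not used.

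The 3 transcripts differed in how much they varied among rats of one group. The within-group SD of log2 CPM was 0.10 for Mt-co1, 0.17 for Mt-co2 and 0.13 for Mt-co3. At the depth of these libraries, counting error contributed an SD of at most 0.0022, 0.0047 and 0.0039 in the same order. The median within-group SD of the 11224 transcripts with a mean of at least 10 CPM was 0.13. A smaller SD than that of Mt-co1 was found for 31.9% of them, than that of Mt-co3 for 46.3% and than that of Mt-co2 for 67.7%. Mt-co2 was therefore the most variable of the 3, and Mt-co1 the least. In a tissue punch, fewer cells rich in a transcript and less of it in each cell cannot be told apart.

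**Figure D1:**
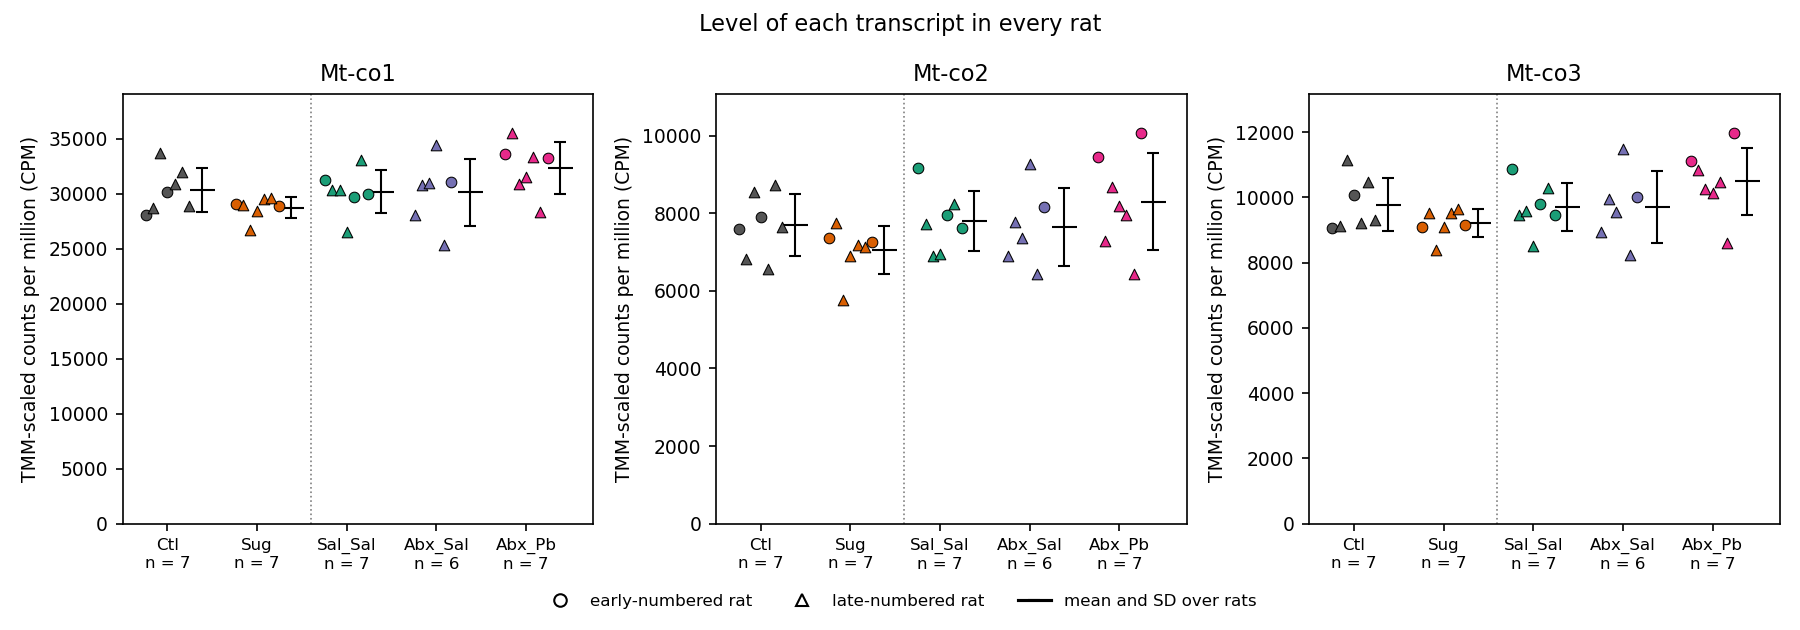
Level of Mt-co1, Mt-co2 and Mt-co3 in every rat, in CPM after TMM scaling, with each symbol 1 rat, circles early-numbered and triangles late-numbered rats, and bars the mean and SD. The dotted line parts Experiment 1 from Experiment 2; in each panel the groups overlap, the Sug mean is the lowest and the Abx_Pb mean the highest.

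The first comparison asked whether sugar in early life changed these transcripts. All 3 had a lower mean CPM in Sug than in Ctl, by about 5 to 8%, but none of the differences exceeded the spread between rats. In TPM (reads per effective length scaled to a fixed total), this did not hold for each transcript. There the Mt-co1 mean was higher in Sug, at 17585 against 17514 in Ctl. The Sug and Ctl means were 12834 and 13239 for Mt-co2, and 13645 and 13668 for Mt-co3. Differences in TPM were not tested. Mt-co1 ranged from 28055 to 33692 CPM in Ctl, with a median of 30135. In Sug it ranged from 26682 to 29561 CPM, with a median of 28926. All 7 Sug rats lay below the Ctl median, while 1 lay below the lowest Ctl rat, so the groups overlapped. The Sug rats were closer together than the Ctl rats, with a mean of 28723 ± 981 CPM (SD, n = 7) against 30334 ± 2000 CPM (SD, n = 7), and this difference in spread was not tested.

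Mt-co2 ranged from 6570 to 8724 CPM in Ctl, with a median of 7657. In Sug it ranged from 5769 to 7747 CPM, with a median of 7182, and 6 of 7 Sug rats were below the Ctl median. Mt-co3 ranged from 9068 to 11159 CPM in Ctl, with a median of 9297. In Sug it ranged from 8379 to 9635 CPM, with a median of 9164, and 4 of 7 Sug rats were below the Ctl median. For each of the 3 transcripts, Sug replicate 3 was the lowest Sug rat and the only one under every Ctl rat.

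In edgeR's quasi-likelihood test, the log2 difference Sug minus Ctl was -0.07 for Mt-co1 (SE 0.043, 95% confidence interval -0.16 to 0.02, adjusted p = 0.743). As a percentage this is -4.91%, with an interval from -10.7% to 1.28%. For Mt-co2 the log2 difference was -0.12 (SE 0.071, interval -0.27 to 0.03, adjusted p = 0.746 in edgeR), or -7.96%. For Mt-co3 it was -0.08 (SE 0.051, interval -0.19 to 0.03, adjusted p = 0.761 in edgeR), or -5.44%. For Mt-co2 the interval in percent ran from -17.2% to 2.27%, and for Mt-co3 from -12.3% to 1.93%. Of the 20865 transcripts tested, edgeR placed 0 (0.0%) under an adjusted p of 0.05 and 1542 (7.39%) under an unadjusted p of 0.05, and DESeq2 placed 26 under the adjusted threshold. None of the 3 members was among the calls of either tool or under the unadjusted threshold in edgeR. Their median log2 difference was -0.08, and that of all transcripts tested was 0.0029. Leaving out single rats moved some of these values by more than 1.5 times, to -0.08 for Mt-co2 without Sug replicate 3 and to -0.049 for Mt-co3 without Ctl replicate 3 (edgeR adjusted p = 0.822 and 0.903). Among late-numbered rats alone the differences were -0.10, -0.14 and -0.09 for Mt-co1, Mt-co2 and Mt-co3. Among early-numbered rats, with 2 in each group, they were -0.0077, -0.08 and -0.07.

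The second comparison asked whether Parabacteroides enrichment changed them. Here all 3 had a higher mean CPM in Abx_Pb than in the combined controls, by about 7 to 8%, again within the spread between rats. In TPM all 3 were higher too, but by less. The TPM means of Abx_Pb and the combined controls were 18225 and 17583 for Mt-co1, and 13871 and 13412 for Mt-co2. For Mt-co3 they were 14285 and 13706, and these differences were not tested. Mt-co1 ranged from 25368 to 34423 CPM in the 13 control rats, with a median of 30360. In Abx_Pb it ranged from 28285 to 35544 CPM, with a median of 33218. Of the 7 Abx_Pb rats, 6 were above the control median and 1 was above every control rat, so the groups overlapped widely.

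Mt-co2 ranged from 6428 to 9278 CPM in the controls, with a median of 7715, and from 6446 to 10079 CPM in Abx_Pb, with a median of 8186. The 5 Abx_Pb rats above the control median included 2 above all controls, replicates 1 and 8, which are the early-numbered rats of that group. Mt-co3 ranged from 8245 to 11487 CPM in the controls, with a median of 9579, and from 8616 to 11986 CPM in Abx_Pb, with a median of 10468. Of the 7 Abx_Pb rats, 6 were above that control median and 1, replicate 8, was above all controls. Abx_Pb replicate 7 was the lowest of its group for each of the 3 transcripts.

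The log2 difference Abx_Pb minus combined controls was 0.10 for Mt-co1 in edgeR (SE 0.054, 95% confidence interval -0.01 to 0.21, adjusted p = 0.652), or 7.10%. It was 0.10 for Mt-co2 (SE 0.080, interval -0.07 to 0.27, adjusted p = 0.784 in edgeR), or 7.24%. It was 0.11 for Mt-co3 (SE 0.062, interval -0.02 to 0.24, adjusted p = 0.660 in edgeR), or 7.91%. The upper ends of the intervals correspond to 15.7% for Mt-co1 and 20.4% for Mt-co2, with Mt-co3 between them. Of the 20827 transcripts tested, edgeR placed 0 (0.0%) under an adjusted p of 0.05 and 1658 (7.96%) under an unadjusted p of 0.05, and DESeq2 placed 19 under the adjusted threshold. No member was among these calls. The median log2 difference was 0.10 over the members and -0.0027 over all transcripts tested. The value for Mt-co2 leaned on single rats, being 0.049 without Abx_Pb replicate 8 and 0.15 without Abx_Pb replicate 7 (edgeR adjusted p = 0.993 and 0.431). Abx_Pb replicate 8 also had the lowest slope of level on transcript length of all 34 rats, -0.056 log2 units per doubling of length relative to the mean rat, with -0.028 in the next, Abx_Pb replicate 2. The mean slope was -0.011 in Abx_Pb and 0.0012 in the combined controls, and with the trend on length removed the differences were 0.08, 0.08 and 0.08 for Mt-co1, Mt-co2 and Mt-co3 (edgeR adjusted p = 0.769, 0.881 and 0.796). Against Abx_Sal alone the members' differences were 0.11, 0.12 and 0.12 in the order Mt-co1, Mt-co2, Mt-co3, and against Sal_Sal alone 0.10, 0.09 and 0.11.

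The size of this difference moved with the numbering, most of all for Mt-co2. Among the 14 late-numbered rats, Abx_Pb minus combined controls was 0.09 for Mt-co1, 0.04 for Mt-co2 and 0.07 for Mt-co3 (edgeR adjusted p = 0.847, 0.956 and 0.881). Among the 6 early-numbered rats, 2 Abx_Pb and 4 controls, it was 0.14, 0.25 and 0.21 (edgeR adjusted p = 0.973 for each). The early-numbered Abx_Pb rats had a mean Mt-co2 level of 9768 CPM, against 7714 CPM for the 5 late-numbered ones. With the numbering as a term in the model over all 20 rats, the differences were 0.10, 0.10 and 0.11 (edgeR adjusted p = 0.616, 0.719 and 0.605), as without it.

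The third comparison asked about antibiotics without bacteria. The means of Abx_Sal and Sal_Sal were nearly equal for all 3 transcripts. Mt-co1 averaged 30108 ± 3073 CPM (SD, n = 6) in Abx_Sal and 30163 ± 1967 CPM (SD, n = 7) in Sal_Sal. Mt-co2 averaged 7651 ± 1009 CPM against 7793 ± 777 CPM, and Mt-co3 9699 ± 1102 CPM against 9708 ± 739 CPM, in the same order and with the same n. The Abx_Sal rats spanned both ends of the controls, as Abx_Sal replicate 6 was the lowest and replicate 5 the highest of the 13 for every transcript.

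In edgeR, the log2 difference Abx_Sal minus Sal_Sal was -0.0019 for Mt-co1 (SE 0.069, 95% confidence interval -0.15 to 0.15, adjusted p = 0.999). It was -0.026 for Mt-co2 (SE 0.087, interval -0.21 to 0.16, adjusted p = 0.995 in edgeR) and -0.00057 for Mt-co3 (SE 0.074, interval -0.16 to 0.16, adjusted p = 1.00 in edgeR). In percent, the interval for Mt-co1 ran from -9.94% to 10.7%, and that for Mt-co2 from -13.7% to 11.8%. Changes within these intervals, in either direction, were thus not excluded. Of the 20954 transcripts tested, edgeR placed 0 (0.0%) under an adjusted p of 0.05 and 910 (4.34%) under an unadjusted p of 0.05, and DESeq2 placed 4 under the adjusted threshold, no member among them. Depending on the processing, the sign of these near-zero differences turned for each of the 3 transcripts.

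**Figure D2:**
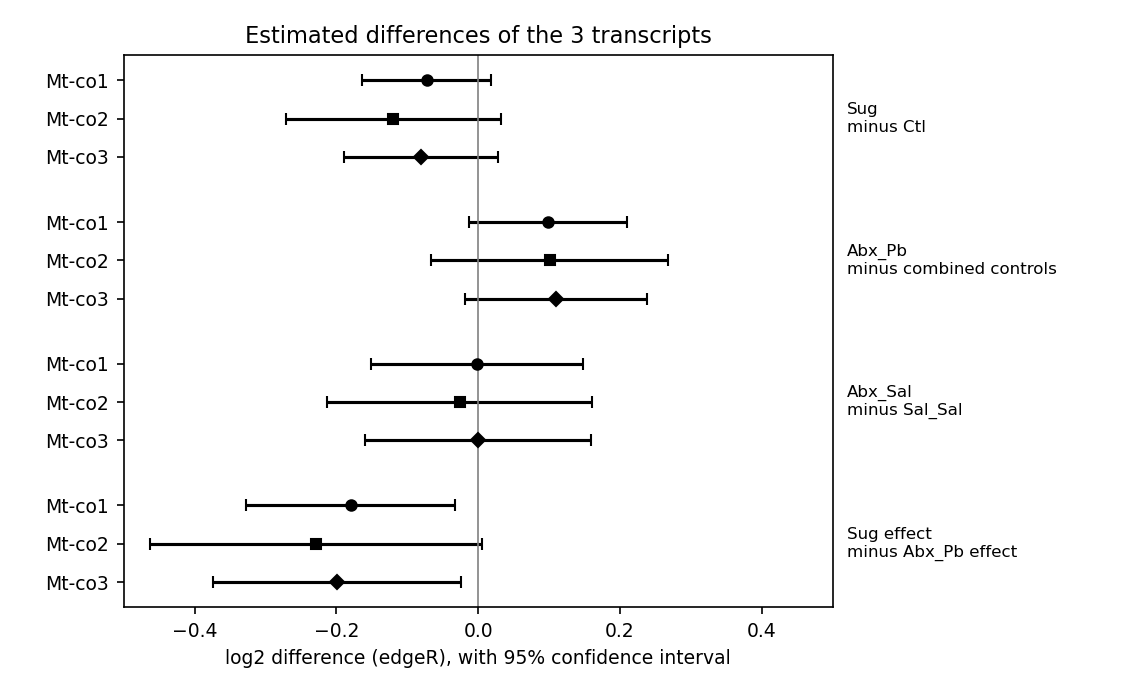
Estimated log2 differences of Mt-co1, Mt-co2 and Mt-co3 (points) with 95% confidence intervals (bars) from edgeR, in 3 comparisons and in the sugar effect less the Parabacteroides effect. The intervals of the first 3 comparisons include 0 for every transcript; in the last, those of Mt-co1 and Mt-co3 end below 0, although no adjusted p is under 0.05.

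The estimates for sugar lay below 0 and those for Parabacteroides above it, and the sugar effect less the Parabacteroides effect was tested directly over all 34 rats, with no control rat in common. It was -0.18 for Mt-co1 in edgeR (SE 0.072, 95% confidence interval -0.33 to -0.03, unadjusted p = 0.0182, adjusted p = 0.543). For Mt-co2 it was -0.23 (SE 0.115, interval -0.46 to 0.01, unadjusted p = 0.0548 and adjusted p = 0.610 in edgeR). For Mt-co3 it was -0.20 (SE 0.086, interval -0.37 to -0.02, unadjusted p = 0.0266 and adjusted p = 0.577 in edgeR). Thus 2 of 3 members had an unadjusted p under 0.05, where 8.19% of the 20909 transcripts tested did (1713), and 0 of 3 had an adjusted p under 0.05, where edgeR gave 0 in all (0.0%) and DESeq2 4. The 3 transcripts varied together from rat to rat, so their results are not independent of one another. Among late-numbered rats it was -0.19, -0.18 and -0.17 for Mt-co1, Mt-co2 and Mt-co3, and among early-numbered rats -0.14, -0.33 and -0.27. Age, cohort and treatment differ together between the experiments and cannot be told apart in a comparison of their levels. This contrast sets each treatment against its own controls, but each treatment was given in a single experiment. Whether a difference between the effects goes with treatment, age or cohort therefore cannot be told apart either.

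Across all 5 groups, the order of mean CPM began with Abx_Pb and ended with Sug for each of the 3 transcripts. For Mt-co1 the means were 32329 CPM in Abx_Pb, 30334 in Ctl, 30163 in Sal_Sal, 30108 in Abx_Sal and 28723 in Sug. For Mt-co2 they were 8301 CPM in Abx_Pb, 7793 in Sal_Sal, 7691 in Ctl, 7651 in Abx_Sal and 7049 in Sug. For Mt-co3 they were 10489 CPM in Abx_Pb, 9775 in Ctl, 9708 in Sal_Sal, 9699 in Abx_Sal and 9204 in Sug. The 3 control groups of both experiments thus lay within a narrow band for every transcript. None of the 12 pairs of neighbours in these orders differed beyond the spread between rats, with edgeR adjusted p-values from 0.560 to 0.999. Over all transcripts, edgeR called 0.139% for Abx_Pb minus Ctl, 0.00478% for each of Ctl minus Sal_Sal and Abx_Sal minus Ctl, and 0.0% for the other neighbouring pairs. The ends of the order, Abx_Pb minus Sug, differed by 0.17 for Mt-co1, 0.24 for Mt-co2 and 0.19 for Mt-co3 on the log2 scale (edgeR adjusted p = 0.211, 0.278 and 0.242). In that contrast edgeR called 25 of 20909 transcripts (0.12%) at an adjusted p under 0.05, and no member was one of them. This pair was chosen for lying at the ends, and it spans both experiments. In TPM, Abx_Pb also had the highest mean for each transcript, but Sug had the lowest for Mt-co2 only (12834). The lowest TPM means of Mt-co1 and Mt-co3 were in Sal_Sal, at 17494 (Sug 17585) and 13629 (Sug 13645).

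Exact permutation tests of each member alone, two-sided and over mean log2 CPM, gave p = 0.0810 for Mt-co1, 0.135 for Mt-co2 and 0.126 for Mt-co3 between Sug and Ctl. Between Abx_Pb and the combined controls, the exact permutation p-values were 0.0728, 0.264 and 0.0990 in the same order. Between Abx_Sal and Sal_Sal, they were 0.924, 0.736 and 0.943. These 9 p-values are unadjusted, and all of them are above 0.05.

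The ratio of one member to another within a library does not depend on how libraries are scaled. For every 1 read of Mt-co1 there were between 0.205 and 0.303 reads of Mt-co2, with a median of 0.254 over the 34 rats. The group means were 0.254 ± 0.022 in Ctl, 0.245 ± 0.016 in Sug, 0.258 ± 0.020 in Sal_Sal, 0.254 ± 0.011 in Abx_Sal and 0.257 ± 0.035 in Abx_Pb (SD). Abx_Pb held both extremes, replicate 2 with the lowest and replicate 8 with the highest of all 34 rats. The ratio of Mt-co3 to Mt-co1 was steadier, from 0.298 to 0.361 with a median of 0.322, and its group means were between 0.320 and 0.324. None of the 9 differences in mean log2 ratio between groups exceeded the spread between rats (exact permutation tests, unadjusted p from 0.394 to 0.969, each 0.969 after adjustment over the 9). The largest was -0.047 for Mt-co2 over Mt-co1 between Sug and Ctl, which moved to -0.018 without Sug replicate 3, -0.029 without Ctl replicate 6, -0.031 without Ctl replicate 1 and -0.089 without Ctl replicate 5.

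The same ratios did differ between early-numbered and late-numbered rats. Mt-co2 over Mt-co1 had a mean log2 ratio of -1.89 ± 0.09 (SD) in the 10 early-numbered rats and of -2.02 ± 0.12 (SD) in the 24 late-numbered rats. The difference of 0.13 passed a permutation test that shuffled all rats without regard to group (p = 0.00255, adjusted over 8 such tests p = 0.0174). The early-numbered rats were higher in 5 of 5 groups. All 10 of them lay above the late-numbered median, although 11 late-numbered rats lay above the lowest early-numbered one. Mt-co3 over Mt-co2 was lower in early-numbered rats by the same test, with mean log2 ratios of 0.29 ± 0.04 and 0.38 ± 0.09 (SD; permutation adjusted p = 0.0174), in 5 of 5 groups. Mt-co3 over Mt-co1 differed by 0.05 (permutation adjusted p = 0.0430) and was higher in early-numbered rats in 4 of 5 groups. The ratios share members, so these results are not independent of one another.

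In levels, the difference was detectable for Mt-co2 only. The log2 CPM of Mt-co2 was 0.15 higher in early-numbered rats (permutation adjusted p = 0.0491), in 5 of 5 groups. For Mt-co1 the difference was 0.012 (permutation adjusted p = 0.780) and for Mt-co3 0.06 (permutation adjusted p = 0.270). The slope of level on transcript length was lower in early-numbered rats in 5 of 5 groups, with means of -0.0052 and 0.0022, and this difference did not pass the test (permutation adjusted p = 0.231). This slope and the number of assigned reads were each set against the mean level of the members and the ratios of Mt-co2 and Mt-co3 to Mt-co1 over 34 rats, and none of the 6 pooled relations passed an adjusted p of 0.05 (permutation tests of Pearson's r, adjusted p from 0.0544 to 0.214). The strongest, of the slope with Mt-co3 over Mt-co1, had an r of -0.45 and a rho of -0.22, and an r of -0.15 without the 2 farthest rats. Some relations were closer within an experiment, where they were not tested. Assigned reads and mean level had an r of -0.53 (rho -0.57) in Experiment 2 and of 0.05 (rho 0.07) in Experiment 1. The slope and Mt-co2 over Mt-co1 had an r of -0.65 (rho -0.66) in Experiment 1 and of -0.15 (rho -0.02) in Experiment 2. Among the 10 early-numbered rats, Abx_Pb replicate 8 among them, the 6 values of r were between -0.63 and -0.47 and those of rho between -0.58 and -0.20. Among late-numbered rats r was between -0.30 and 0.0026 and rho between -0.30 and -0.06. With the numbering in the model, Sug minus Ctl was -0.07, -0.12 and -0.08 in the order Mt-co1, Mt-co2, Mt-co3.

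**Figure D3:**
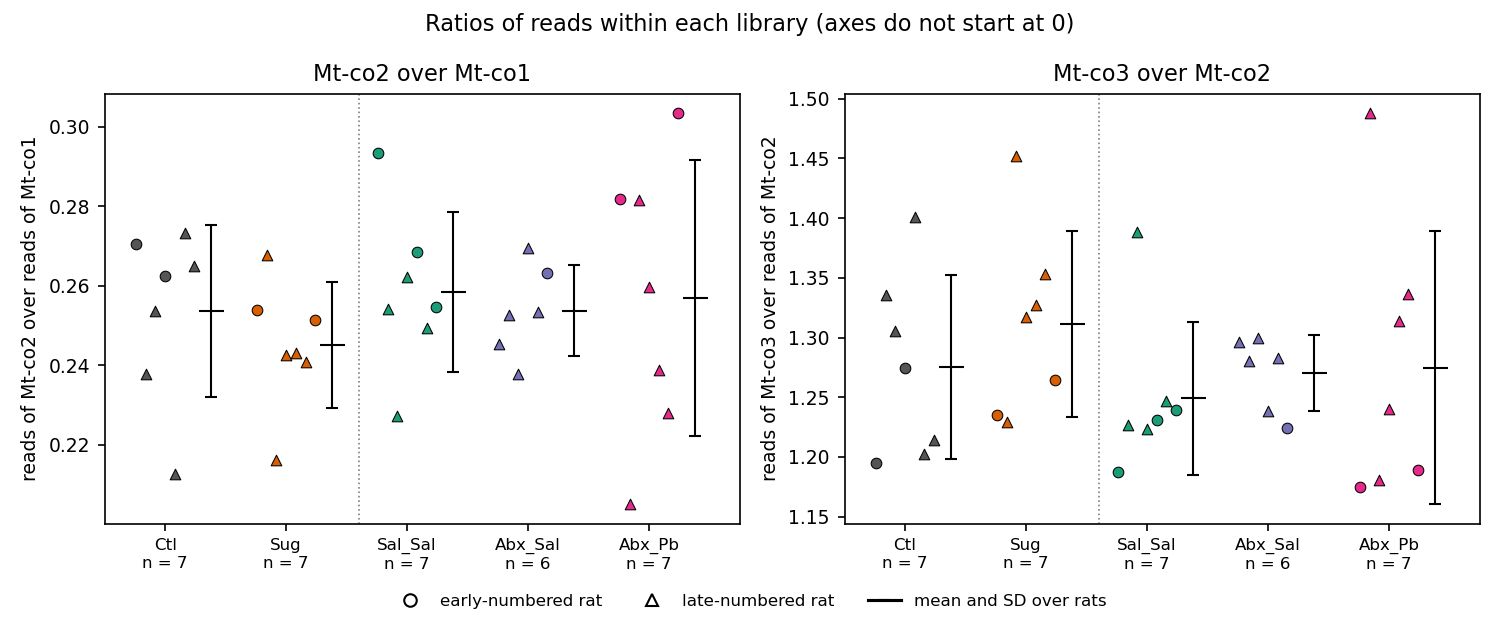
Reads of Mt-co2 per read of Mt-co1 (left) and of Mt-co3 per read of Mt-co2 (right) in every rat, by group; circles are early-numbered and triangles late-numbered rats, bars show the mean and SD, and the axes do not start at 0. Circles lie towards the top on the left, where all 10 exceed the median of the 24 triangles, and towards the bottom on the right.

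The 3 transcripts varied together from rat to rat within a group. With each rat's log2 CPM centred on its group mean, Mt-co1 and Mt-co3 had a Pearson's r of 0.89 and a Spearman's rho of 0.89 over 34 rats (permutation p = 1e-05 for each, the smallest that 100000 permutations give; adjusted over the 3 pairs p = 1.5e-05). Mt-co2 and Mt-co3 had an r of 0.87 and a rho of 0.81 (permutation adjusted p = 1.5e-05 for each). Mt-co1 and Mt-co2 were less close, with an r of 0.64 (permutation adjusted p = 4e-05) and a rho of 0.59 (permutation adjusted p = 0.00035). Without the 2 rats farthest from the median, r was 0.85 for Mt-co1 with Mt-co3, 0.84 for Mt-co2 with Mt-co3 and 0.53 for Mt-co1 with Mt-co2. Within Experiment 1 (14 rats) r was 0.90, 0.82 and 0.62 for these pairs, and within Experiment 2 (20 rats) 0.89, 0.89 and 0.65. Among early-numbered rats it was 0.78, 0.94 and 0.72, and among late-numbered rats 0.93, 0.86 and 0.68. The levels of a rat share its library total, so part of each correlation can come from the scaling.

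**Figure D4:**
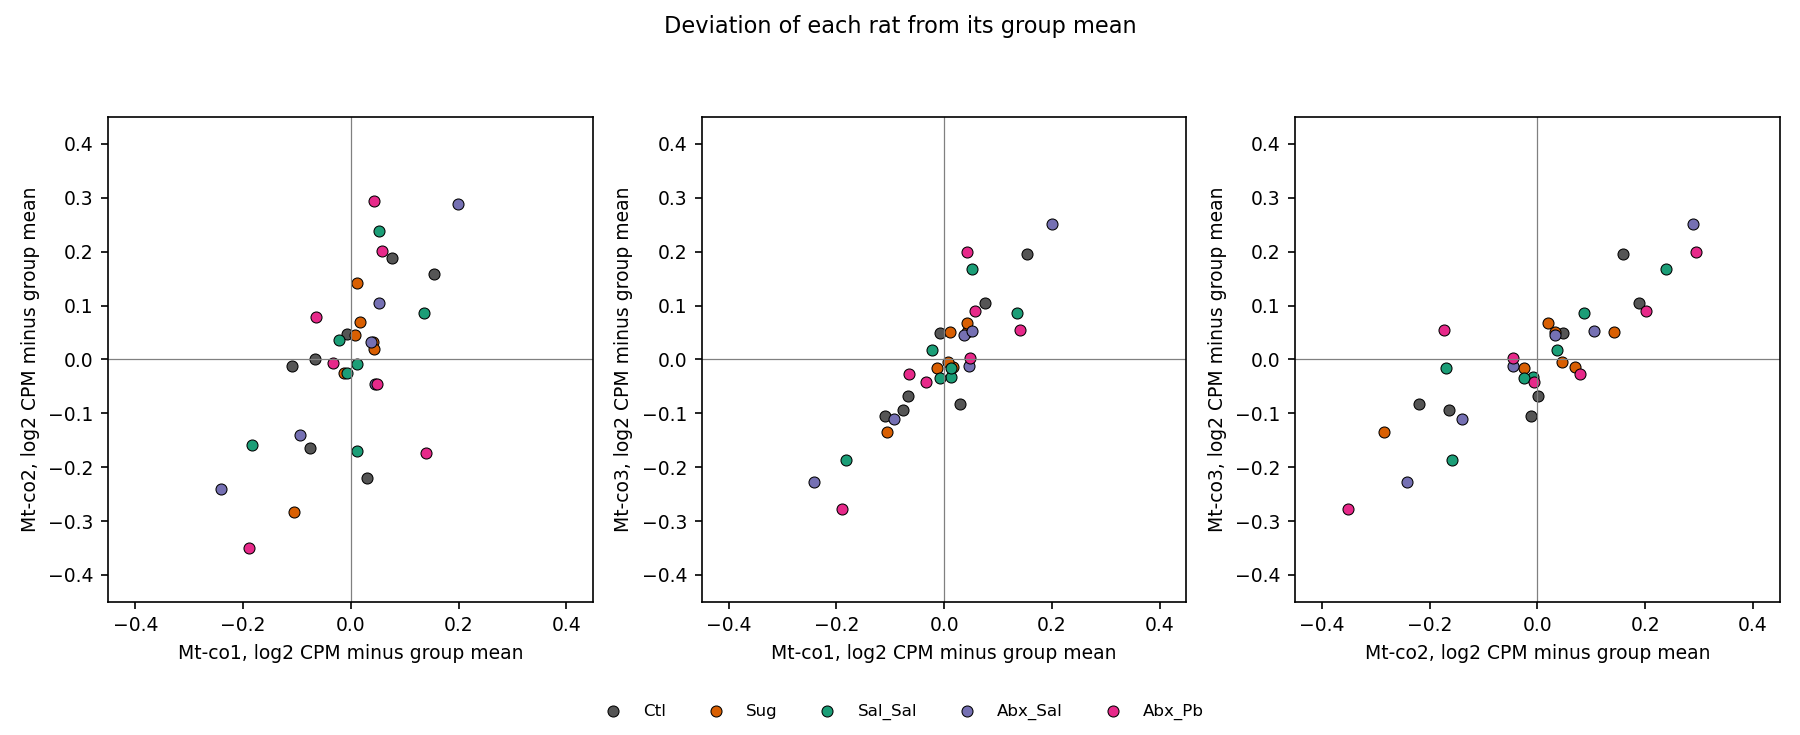
Deviation of each rat from its group mean in log2 CPM, for Mt-co1 and Mt-co2 (left), Mt-co1 and Mt-co3 (middle) and Mt-co2 and Mt-co3 (right), with each point 1 of 34 rats coloured by group. Points fall along a rising line, closely for Mt-co3 with either other transcript (r = 0.89 and 0.87) and more loosely for Mt-co1 with Mt-co2 (r = 0.64).

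Other abundant transcripts followed the members over the same rats. Among 11221 transcripts with a mean of at least 10 CPM, members left out, 5 had the highest Pearson's r with the mean of the members' log2 CPM, each centred on its group mean. These were ENSRNOT00000040993.4 (r = 0.93, 1039 bases), ENSRNOT00000046108.3 (r = 0.93, 681 bases), ENSRNOT00000047550.4 (r = 0.92, 955 bases), ENSRNOT00000042098.3 (r = 0.90, 1143 bases) and ENSRNOT00000042928.3 (r = 0.89, 1378 bases). The next transcript had an r of 0.87, and the median over all was -0.06. All 5 were at levels like those of Mt-co2 and Mt-co3, with median levels from 7560 to 10298 CPM, not corrected for length, and each had its highest group mean in Abx_Pb and its lowest in Sug. This order of the end groups was thus not particular to the members. The 5 are given by identifier only, and whether they are other genes of the mitochondrial genome was not determined. The estimated counts of ENSRNOT00000046108.3 were whole numbers in only 2 of 34 rats, so its reads were shared out with other transcripts.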

How the data were processed

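Per the study's methods and the processing notes, the authors checked single reads with FastQC, trimmed them with Trim Galore and used Salmon with the Rnor6 transcriptome to quantify them; the versions are not given in the sources used here. For each rat they deposited expected counts per transcript, which are not normalized, and TPM, which are reads per effective length scaled to a fixed total. A single transcript of 204 bases (ENSRNOT00000046201.3, effective length 10.4) took 39.7 to 47.1% of the deposited TPM but 0.494 to 0.723% of the reads, so levels are given here as CPM and, between transcripts, as CPM per kilobase of effective length (1296, 435 and 535 bases for Mt-co1, Mt-co2 and Mt-co3 in every rat). TPM served as an alternative, given as group means for sugar, for Parabacteroides and for the order of groups. Differences in TPM level between groups were not tested.

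Expected counts were rounded. A transcript was kept where over 50% of the compared rats had a count above 1. The study set a similar limit on genes, worded as a mean raw count above 1 in over 50% of samples. Tests across transcripts used edgeR 4.0.16 (glmQLFTest, TMM scaling) in R 4.3.3 on all transcripts kept, with Benjamini-Hochberg adjustment over them. Single values were compared between groups by exact permutation tests, two-sided, and early-numbered with late-numbered rats and correlations by 100000 permutations, in Python 3.11.15 with scipy 1.17.1. Figures were drawn with matplotlib 3.10.9. The study's own test, DESeq2 (here 1.42.0), other scalings and filters, the replicate number or the numbering of the labels in the model, a removed trend on length (lowess, span 0.5) and each rat left out in turn were alternatives. The comparison of early-numbered with late-numbered rats and the fits on early-numbered rats alone were added after the data had been seen.

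Transcripts were named by rule: the 3 members, and the 5 transcripts most correlated with their mean. The members and lists were chosen with earlier results of these data known. The symbols come from the list of members, since the deposited files hold identifiers only. The study summed transcripts to genes, and sums to genes were not made here. It left out 1 control and 1 treated rat of Experiment 2. The labels used here skip a replicate number in Abx_Pb and in Abx_Sal, and whether these are the rats left out is not stated. The study's heatmap of this experiment lists more combined controls than were used here. Over 99 pairs of libraries of the same group, the chi-square per degree of freedom was between 3.59 and 45.2, so none was a repeat of another. Each sample is a separate rat.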

Additional observations from a re-analysis of the deposited data

Results flagged for a closer look

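In 30 combinations of group and quantity, the most extreme rat was compared with its neighbours by Dixon's ratio, and 3 combinations, from 2 rats, were beyond the 95% limit, where chance gives about 1 in 20. Sug replicate 3 was far below the other Sug rats for Mt-co1, with 26682 CPM against 28456 CPM in the next rat, and for Mt-co2, with 5769 CPM against 6900 CPM. These are not independent, since both transcripts vary together. Without this rat, Sug minus Ctl was -0.06 for Mt-co1, -0.08 for Mt-co2 and -0.06 for Mt-co3 (edgeR adjusted p = 0.805, 0.822 and 0.829). Sal_Sal replicate 3 had 1.39 reads of Mt-co3 per read of Mt-co2, against 1.25 in the next Sal_Sal rat.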

How the results depend on the processing

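No member passed the adjusted threshold in any comparison of treatments under any setting run. On counts or CPM, the members' differences in level kept their sign in every setting for Sug minus Ctl and Abx_Pb minus combined controls. The same held for the sugar effect less the Parabacteroides effect. In TPM the sign of Sug minus Ctl turned for Mt-co1, with a mean of 17585 in Sug and 17514 in Ctl. Differences in TPM level were not tested, and a single transcript took 39.7 to 47.1% of the TPM of a rat. Over all transcripts, edgeR on all rats of a comparison, at the settings of the report, called 0 for Sug minus Ctl, Abx_Pb minus combined controls, Abx_Sal minus Sal_Sal and the sugar effect less the Parabacteroides effect, while DESeq2 called 26 for Sug minus Ctl, 19 for Abx_Pb minus combined controls, 4 for Abx_Sal minus Sal_Sal and 4 for the sugar effect less the Parabacteroides effect. For the latter, edgeR called 2 in late-numbered rats alone and 1 with the trend on length removed. Early-numbered rats alone gave 1 call for Abx_Sal minus Sal_Sal, but this sets 1 Abx_Sal rat against 3 Sal_Sal rats and assumes that the lone rat varies like the others. Leaving out each rat in turn gave 0 to 1 for Sug minus Ctl and 0 to 1 for the sugar effect less the Parabacteroides effect. The cause of these shifts was not tested.

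The signs that turned belong to differences near 0. In edgeR, Abx_Sal minus Sal_Sal turned to 0.013 for Mt-co1 and 0.014 for Mt-co3 with library totals only, to 0.0038, 0.010 and 0.019 (Mt-co1, Mt-co2, Mt-co3) with the numbering in the model, to 0.019 for Mt-co2 and 0.028 for Mt-co3 in late-numbered rats, and to 0.033 for Mt-co1 in early-numbered rats, with only 1 Abx_Sal rat. Without each rat in turn it ran from -0.044 to 0.043, from -0.089 to 0.019 and from -0.055 to 0.042. As mean log2 CPM it turned to 0.010 for Mt-co1 and 0.011 for Mt-co3 with library totals, and to 0.011 for Mt-co2 and 0.021 for Mt-co3 in late-numbered rats. Without each rat in turn this value ran from -0.046 to 0.042, from -0.088 to 0.018 and from -0.056 to 0.040.

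Among log2 ratios, late-numbered rats gave 0.014 for Mt-co3 over Mt-co1 in Sug minus Ctl, -0.015 for it in Abx_Pb minus combined controls and 0.022 for Mt-co2 over Mt-co1 in Abx_Sal minus Sal_Sal. Without each rat in turn, Mt-co3 over Mt-co1 ran from -0.026 to 0.0021 in Sug minus Ctl, from -0.017 to 0.024 in Abx_Pb minus combined controls and from -0.0094 to 0.020 in Abx_Sal minus Sal_Sal. Mt-co2 over Mt-co1 ran from -0.047 to 0.047 in Abx_Pb minus combined controls and from -0.055 to 0.0067 in Abx_Sal minus Sal_Sal, and Mt-co3 over Mt-co2 from -0.024 to 0.033 in Abx_Pb minus combined controls.

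The replicate numbers of the labels were not taken to pair the rats, since in no pair of groups did the deviations of every same-numbered pair of rats correlate above 0.1 (r from -0.30 to 0.19). An r above 0.1 was found for 3 of 5 pairs of Abx_Pb with Abx_Sal, 1 of 7 of Sug with Ctl, 0 of 6 of Abx_Pb with Sal_Sal and 0 of 6 of Abx_Sal with Sal_Sal. With the replicate block, Sug minus Ctl was -0.07, -0.12 and -0.08 for Mt-co1, Mt-co2 and Mt-co3, Abx_Pb minus combined controls 0.08, 0.014 and 0.05, Abx_Sal minus Sal_Sal 0.0035, 0.010 and 0.024, and the sugar effect less the Parabacteroides effect -0.16, -0.14 and -0.14, and edgeR called 0 transcripts in each.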
